A study of Mus musculus with 12 samples.

Results

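The 9 genes described here make, carry, sense and break down retinoic acid, the signalling form of vitamin A. They are Aldh1a1, Aldh1a2, Aldh1a3, Dhrs3, Stra6, Crabp2, Cyp26a1, Cyp26b1 and Rarb, and they were taken by symbol from a table of 48795 mouse genes. All 9 had enough counts to be among the 18153 genes tested. RNA sequencing covered mouse fetal membranes, the sacs around the fetus, from embryonic day 12 (E12) and embryonic day 18 (E18). The animals lacked biglycan (Bgn) and decorin (Dcn) through a double knockout (DKO), both of them proteoglycans that bind collagen fibrils, or were wild-type (WT). The 12 libraries form 4 groups of 3: E12 DKO, E12 WT, E18 DKO and the libraries labelled E18 WT. The labels give the strain as C3H and C57BL/6 for the DKO groups and as C3H for the WT groups, so strain and genotype cannot be told apart. From the series' title and design, the question was how loss of both proteoglycans alters the membranes of each stage, with the knockout mouse serving to model preterm birth.

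Retinol enters many cells through the membrane receptor STRA6 and is oxidised to retinaldehyde, which DHRS3 reduces back to retinol. The retinaldehyde dehydrogenases ALDH1A1, ALDH1A2 and ALDH1A3 oxidise retinaldehyde to retinoic acid, CRABP2 carries the acid towards the nucleus, and nuclear receptors such as RARβ (Rarb) bind it. The CYP26 enzymes hydroxylate retinoic acid and so clear it, and Rarb, Cyp26a1, Dhrs3 and Stra6 are known in embryonic cells as genes that retinoic acid itself switches on. In the mouse, the endoderm of the yolk sac, itself a fetal membrane, secretes the retinol carriers RBP4 and transthyretin towards the embryo.

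Total counts ranged from 19967593 to 33065424 per library. Both targeted genes were far lower in the 6 DKO libraries than in the 6 WT libraries, with no overlap. Bgn was at 14.3 to 25.1 CPM (counts relative to the TMM-normalised library size) over the DKO libraries, against 223 to 686 CPM over the WT libraries. Dcn was at 4.67 to 8.44 CPM over the DKO libraries, against 198 to 978 CPM over the WT libraries. The embryonic genes' share of beta-globin counts, which falls in mouse development, was 1.33% to 2.67% in E18 DKO and 82.3% to 85.1% in E12 DKO. It was 74.8% to 87.8% in the libraries labelled E18 WT, close to the E12 DKO libraries and far above the E18 DKO libraries, so the labelled stage of these 3 libraries is in doubt. In E12 WT it was 95.1% and 97.1% in libraries 2 and 3 but 14.8% in library 1. Library 3 labelled E18 WT also had the highest sum of 9 trophoblast markers, at 771 CPM against 1.43 to 106.5 CPM in the other 11 libraries, and E12 WT 3 had 21.2% mitochondrial counts against 3.58% to 7.78% elsewhere. Markers of the tissue were present throughout: 9 markers of surface epithelium summed to at least 1981 CPM, 9 of mesenchyme to at least 3459 CPM and 9 of yolk sac endoderm to at least 53387 CPM in every library. In bulk tissue, fewer cells of a type and less RNA per cell cannot be told apart. Nothing in the labels says that the libraries came from separate animals, so p-values measure only the spread between these libraries, which may be technical.

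Dhrs3, which encodes the enzyme that returns retinaldehyde to retinol, was the most abundant of the 9 (ENSMUSG00000066026, GRCm38 chromosome 4, 144892827 to 144928209, plus strand). Per kilobase of exon it was the highest of the 9 genes in 11 of the 12 libraries, at 15.2 to 45.3 CPM per kb over all 12. The exception was library 1 labelled E18 WT, where the carrier gene Crabp2 stood at 18.8 and Dhrs3 at 18.3 CPM per kb. Its highest value within a group was 1.03 to 1.44 times the lowest, the smallest spread of the 9 genes in each group except labelled E18 WT, where Aldh1a1 spread 1.17-fold and Dhrs3 1.19-fold. Dhrs3 was lower in DKO than in WT at E12 and higher in DKO than in labelled E18 WT.

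Dhrs3 was at 46.0, 45.3 and 44.6 CPM in E12 DKO, against 104, 86.5 and 104 CPM in E12 WT. Its E18 DKO levels were 91.8, 107 and 133 CPM, against 53.5, 45.0 and 45.3 CPM in labelled E18 WT. The E12 DKO libraries all lay below the E12 WT libraries, and the E18 DKO libraries all lay above those labelled E18 WT. From low to high, E12 DKO averaged 45.3 ± 0.709 CPM, labelled E18 WT 47.9 ± 4.81, E12 WT 98.0 ± 9.94 and E18 DKO 110.3 ± 20.6 CPM (SD, n = 3 each). The neighbours within the low pair and within the high pair overlapped, and no library of the low pair reached a library of the high pair.

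Tested by edgeR's quasi-likelihood F-test, with p-values adjusted by Benjamini-Hochberg over all genes, Dhrs3 fell in E12 DKO against E12 WT by 1.11 ± 0.16 on the log2 scale (fitted change ± SE, adjusted p = 0.0305). It rose by 1.20 ± 0.16 in E18 DKO against labelled E18 WT (adjusted p = 0.000382). Between stages, it rose by 1.28 ± 0.16 in E18 DKO against E12 DKO (adjusted p = 0.000211) and fell by 1.03 ± 0.16 in labelled E18 WT against E12 WT (adjusted p = 0.0175). The E18 genotype call and the DKO stage call held in all 12 fits that each left out 1 library. The E12 call was lost in 6 of these 12 fits, without E12 DKO 1, 2 or 3 (adjusted p = 0.200, 0.164 and 0.189), E12 WT 3 (0.0723) or labelled E18 WT 1 or 2 (0.0604 and 0.0575), while its value stayed between -1.19 and -1.07. The WT stage call was lost when labelled E18 WT 1, 2 or 3 was left out (adjusted p = 0.0606, 0.0858 and 0.0946).

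With the wild-type groups exchanged, which was tried after the data had been seen, Dhrs3 showed no called difference. The change was -0.08 for E12 DKO against labelled E18 WT (adjusted p = 0.893) and 0.17 for E18 DKO against E12 WT (adjusted p = 0.453). The second pair is not matched for stage. Its embryonic beta-globin share was 95.1% and 97.1% in E12 WT 2 and 3, against 1.33% to 2.67% in E18 DKO. The same limit holds for E18 DKO against E12 WT in the other genes below.

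**Figure D1:**
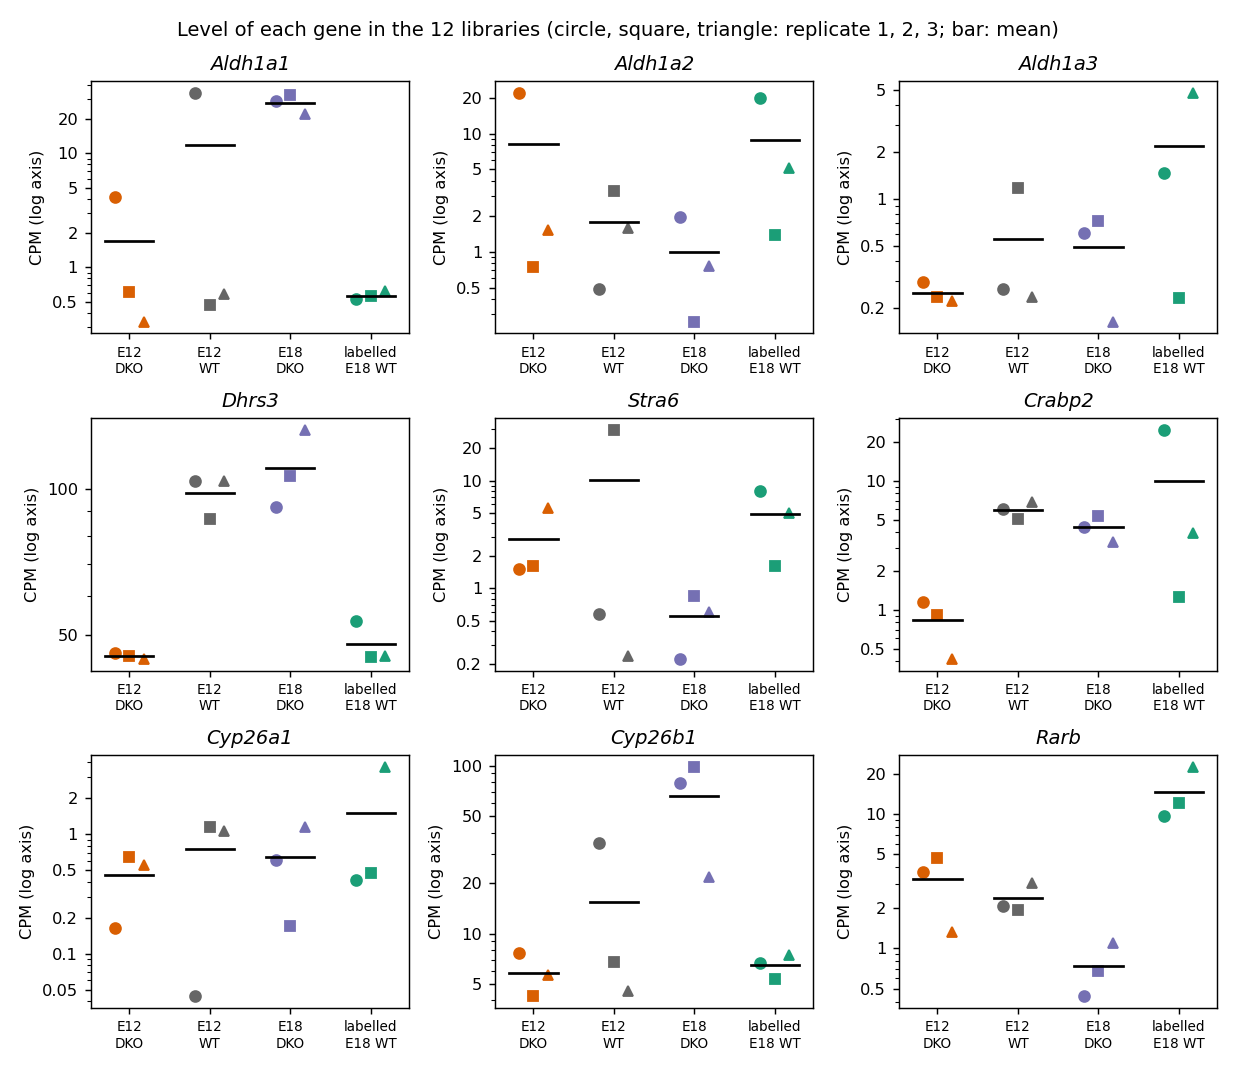
Level of each of the 9 genes in each library, in CPM on a log axis, with groups along the x axis, circle, square and triangle for replicates 1, 2 and 3, and a bar at the group mean. Dhrs3 lies in a tight low band in E12 DKO and labelled E18 WT and a higher band in E12 WT and E18 DKO, Rarb is lowest in E18 DKO and highest in labelled E18 WT, and Aldh1a1 reaches 22.0 CPM or more only in E18 DKO and E12 WT 1.

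Among the 3 genes for the enzymes that make retinoic acid, the E18 DKO membranes held mostly Aldh1a1 and the libraries labelled E18 WT mostly Aldh1a2. Aldh1a1 (ENSMUSG00000053279, chromosome 19, 20601961 to 20643462, plus strand) was at 28.6, 32.4 and 22.0 CPM in E18 DKO, against 0.528, 0.557 and 0.616 CPM in labelled E18 WT. It was at 4.14, 0.610 and 0.332 CPM in E12 DKO, against 34.2, 0.464 and 0.589 CPM in E12 WT. All E18 DKO libraries were high and all libraries labelled E18 WT were low, while the E12 groups overlapped and 1 E12 WT library, the one with the low embryonic globin share, was as high as the E18 DKO libraries.

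Aldh1a1 rose in E18 DKO against labelled E18 WT by 5.60 ± 1.57 log2 units (edgeR quasi-likelihood test, adjusted p = 0.0148). That call was lost without labelled E18 WT 1 or 2 (adjusted p = 0.0528 and 0.0539), where the change was 5.55 and 5.58. With E12 WT in place of labelled E18 WT, the change was 1.23 and was not called (adjusted p = 0.497). Aldh1a1 also rose in E18 DKO against E12 DKO, by 4.03 ± 1.43 (adjusted p = 0.0383). This stage call held in 5 of the 12 fits that left out 1 library. It was lost without E12 DKO 2 or 3, any E18 DKO library, or labelled E18 WT 1 or 2, at adjusted p-values of 0.0514 to 0.117. In E12 DKO against E12 WT the value was -2.80 ± 1.37 (adjusted p = 0.232), and without E12 WT 1 it was 1.69 (adjusted p = 0.205). Aldh1a7, a close copy of Aldh1a1 that could exchange reads with it, stood at 0.109 to 1.38 CPM over the 12 libraries.

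Aldh1a2, which supplies most retinoic acid in the early mouse embryo (ENSMUSG00000013584, chromosome 9, 71215789 to 71296243, plus strand), passed edgeR's quasi-likelihood test in none of the genotype or stage comparisons. It was at 22.4, 0.746 and 1.55 CPM in E12 DKO, against 0.484, 3.28 and 1.59 CPM in E12 WT. Its E18 DKO levels were 1.98, 0.256 and 0.763 CPM, against 20.1, 1.41 and 5.17 CPM in labelled E18 WT. Library 1 was by far the highest in E12 DKO and in the group labelled E18 WT, and the groups overlapped at both stages. The fitted values were 2.19 ± 1.31 between the E12 groups (adjusted p = 0.321) and -3.17 ± 1.38 between the E18 groups (adjusted p = 0.085), the second becoming a call without E12 DKO 1 (adjusted p = 0.0384). The E18 difference was also called by the DESeq2 Wald test (-3.14, adjusted p = 0.0172) and in the edgeR fit of only the groups compared (-3.15, adjusted p = 0.0423), and DESeq2 called E18 DKO lower than E12 DKO (-3.05, adjusted p = 0.0194). Without E12 DKO 1 the E12 value was -0.63.

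Aldh1a3 (ENSMUSG00000015134, chromosome 7, 66390890 to 66427517, minus strand) had few reads, 3 to 118 counts per library. It was at 0.296, 0.237 and 0.222 CPM in E12 DKO, against 0.264, 1.18 and 0.235 CPM in E12 WT, and at 0.605, 0.725 and 0.163 CPM in E18 DKO, against 1.47, 0.234 and 4.84 CPM in labelled E18 WT. Its highest value was in library 3 labelled E18 WT, the library with the most trophoblast marker RNA, and the groups overlapped at both stages. The fitted change was -1.18 ± 0.99 between the E12 groups (adjusted p = 0.484) and -2.10 ± 0.96 between the E18 groups (adjusted p = 0.0988), and without labelled E18 WT 2 the E18 value was -2.64 (adjusted p = 0.0318).

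Taken per kilobase of exon, Aldh1a1 supplied 93.3%, 98.3% and 96.6% of the summed level of the 3 genes in the E18 DKO libraries, against 2.72%, 28.8% and 8.25% in those labelled E18 WT. At E12 its share was 16.9%, 43.8% and 18.1% in DKO libraries, against 98.4%, 11.7% and 27.6% in WT libraries. Aldh1a2 held the largest share in all 8 libraries in which Aldh1a1 did not, at 48.6% to 93.9%. These shares are a description of each library, and depend on the smallest counts where all 3 genes are near 1 CPM or below.

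**Figure D2:**
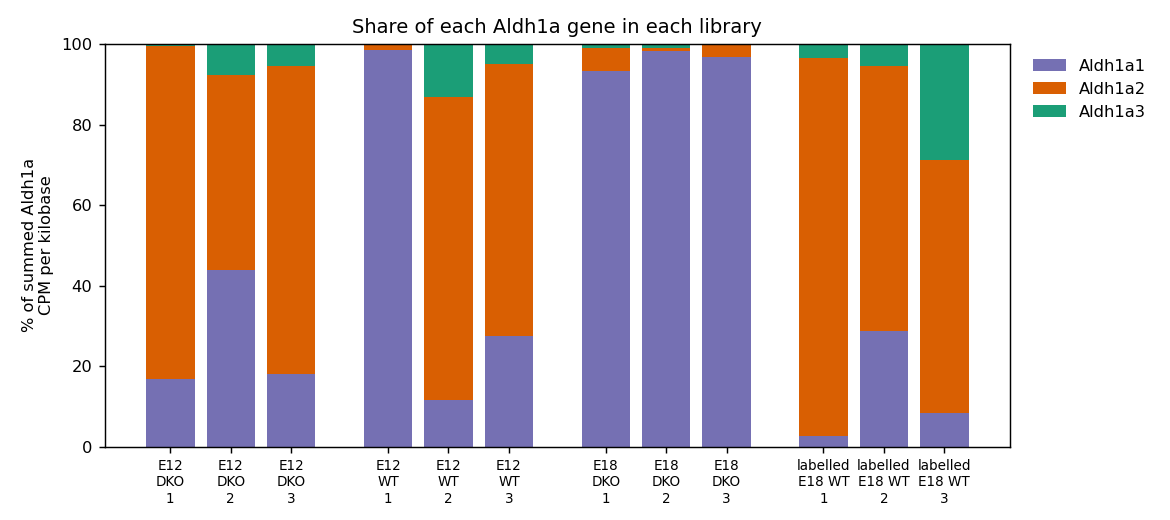
Share of Aldh1a1, Aldh1a2 and Aldh1a3 in their summed level, in percent of CPM per kilobase, as a stacked bar for each of the 12 libraries, ordered by group. Aldh1a1 fills 93.3% to 98.3% of the bars of the 3 E18 DKO libraries and 98.4% of that of E12 WT 1, and Aldh1a2 is the largest part of the other 8 bars.

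The retinol receptor gene Stra6 and the carrier gene Crabp2 showed no difference between genotypes that edgeR's quasi-likelihood test called at either stage. Stra6 (ENSMUSG00000032327, chromosome 9, 58063788 to 58153996, plus strand) was at 1.51, 1.59 and 5.51 CPM in E12 DKO, against 0.572, 29.7 and 0.235 CPM in E12 WT. Its E18 DKO levels were 0.220, 0.853 and 0.599 CPM, against 7.99, 1.61 and 5.01 CPM in labelled E18 WT. All E18 DKO libraries lay below all those labelled E18 WT, and the spread within E12 WT, 126-fold, was the widest of any gene and group among the 9.

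The fitted value of Stra6 at E18 was -3.09 ± 1.46 (adjusted p = 0.109), and without E12 WT 2 it was -3.07 (adjusted p = 0.0103). It was called by the DESeq2 Wald test (-3.11, adjusted p = 0.0259) and in the edgeR fit of only the groups compared (-3.08, adjusted p = 0.00926). At E12 it was -1.83 ± 1.32 (adjusted p = 0.413) and, without E12 WT 2, 2.80 (adjusted p = 0.111). That library had 106.5 CPM of summed trophoblast markers, against 2.38 and 2.94 CPM in E12 WT 1 and 3. The part of those cells in the Stra6 level was not tested. The annotation also places Gm16131 on the same strand and Ccdc33 on the other strand over part of the Stra6 locus. Reads were counted by strand, and whether Gm16131 shares exon bases with Stra6 was not examined. The other 8 genes overlap no annotated gene.

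Crabp2 (ENSMUSG00000004885, chromosome 3, 87948666 to 87953376, plus strand) was at 1.15, 0.915 and 0.415 CPM in E12 DKO, against 6.03, 5.07 and 6.83 CPM in E12 WT. Its E18 DKO levels were 4.40, 5.29 and 3.38 CPM, against 24.8, 1.26 and 3.94 CPM in labelled E18 WT. The E12 groups did not overlap, with the DKO libraries lower, and the E18 groups did. The E12 value was -2.85 ± 0.87 and missed the threshold (adjusted p = 0.102 over all genes, and 0.0612 to 0.288 over the fits that left out 1 library), whereas the DESeq2 Wald test gave -2.85 with an adjusted p of 0.00845. The E18 value was -1.20 ± 0.80 (adjusted p = 0.249), and without labelled E18 WT 1 it was 0.75 (adjusted p = 0.304). That library also had the highest sum of 4 cartilage markers, 780 CPM, against 3.68 to 5.12 CPM in E18 DKO and 317 to 563 CPM in labelled E18 WT 2 and 3. The part of that difference in the Crabp2 level was not tested. Crabp2 rose in E18 DKO against E12 DKO by 2.40 ± 0.86 (adjusted p = 0.0391), with no overlap, a call lost without any 1 of these 6 libraries (adjusted p = 0.056 to 0.124).

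Of the genes for the enzymes that clear retinoic acid, Cyp26b1 was higher in the E18 DKO membranes and Cyp26a1 was scarce everywhere. Cyp26b1 (ENSMUSG00000063415, chromosome 6, 84571414 to 84593908, minus strand) was at 78.5, 98.6 and 21.8 CPM in E18 DKO, against 6.71, 5.36 and 7.51 CPM in labelled E18 WT. It was at 7.66, 4.24 and 5.65 CPM in E12 DKO, against 34.7, 6.81 and 4.53 CPM in E12 WT. Every E18 DKO library exceeded every library labelled E18 WT and every E12 DKO library, while the E12 groups overlapped and E12 WT 1 lay within the range of E18 DKO. Cyp26b1 rose by 3.35 ± 0.75 log2 units in E18 DKO against labelled E18 WT (edgeR quasi-likelihood test, adjusted p = 0.00488) and by 3.50 ± 0.76 in E18 DKO against E12 DKO (adjusted p = 0.00355). Both calls held in all 12 fits that left out 1 library. The E12 value was -1.39 ± 0.70 (adjusted p = 0.247), and 0.038 without E12 WT 1 (adjusted p = 0.968). With E12 WT in place of labelled E18 WT, E18 DKO was still higher, by 2.11 (adjusted p = 0.0467).

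Cyp26a1 (ENSMUSG00000024987, chromosome 19, 37697808 to 37701528, plus strand) had 1 to 89 counts per library. It was at 0.164, 0.644 and 0.554 CPM in E12 DKO, against 0.0440, 1.14 and 1.06 CPM in E12 WT, and at 0.605, 0.171 and 1.14 CPM in E18 DKO, against 0.415, 0.469 and 3.65 CPM in labelled E18 WT. The groups overlapped in every comparison, and the lowest value, in E12 WT 1, rests on 1 count (exact Poisson 95% interval 0.0253 to 5.57 counts, for counting error only). The fitted value was -0.71 ± 1.09 between the E12 groups (adjusted p = 0.721) and -1.24 ± 1.09 between the E18 groups (adjusted p = 0.378). Without labelled E18 WT 3, its highest library, the E18 value was 0.51 (adjusted p = 0.733).

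Rarb, which encodes the receptor RARβ, was lowest in E18 DKO and highest in the libraries labelled E18 WT. Its gene (ENSMUSG00000017491) lies on chromosome 14, 16430842 to 16575472, minus strand. Rarb was at 0.440, 0.682 and 1.09 CPM in E18 DKO, against 9.61, 12.0 and 22.5 CPM in labelled E18 WT. It was at 3.71, 4.75 and 1.33 CPM in E12 DKO, against 2.07, 1.93 and 3.06 CPM in E12 WT. The E18 groups were far apart, each of them lay wholly outside the range of both E12 groups, and the E12 groups overlapped. In rising order the means were 0.737 ± 0.328 CPM in E18 DKO, 2.35 ± 0.617 in E12 WT, 3.26 ± 1.75 in E12 DKO and 14.7 ± 6.85 CPM in labelled E18 WT (SD, n = 3 each).

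Rarb fell by 4.31 ± 0.57 log2 units in E18 DKO against labelled E18 WT (edgeR quasi-likelihood test, adjusted p = 0.000325). It also fell by 2.14 ± 0.53 in E18 DKO against E12 DKO (adjusted p = 0.00759). Both calls held in all 12 fits that left out 1 library. Against E12 WT in place of labelled E18 WT, E18 DKO was lower by a smaller amount, -1.66 (adjusted p = 0.0385). At E12 the value was 0.47 ± 0.49 (adjusted p = 0.581). Rarb rose by 2.65 ± 0.52 in labelled E18 WT against E12 WT (adjusted p = 0.0411). This call held in 4 of 12 such fits and was lost without E12 DKO 1, E12 WT 2 or 3, E18 DKO 1 or 2, or any library labelled E18 WT (adjusted p = 0.051 to 0.145).

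Rarb and Cyp26a1 are textbook targets of the retinoic acid receptors, which bind direct repeats of a 6-base half-site, and their promoters are shown because these were the only member promoters with such a repeat. RefSeq promoter windows (GRCm38.p6, 250 bases before to 50 after a gene start) were found for 7 of the 9 genes, in 13 windows. Each was searched on both strands for direct repeats of the consensus half-site AGGTCA or of its variants AGTTCA (present in both repeats shown), GGTTCA (the first copy in Rarb) and GGGTCA, in any combination, with 1, 2 or 5 bases between. The Rarb window is chr14:16575427-16575726 on the minus strand, and the Cyp26a1 window is chr19:37697558-37697857 on the plus strand. Each is written 5′ to 3′ along its gene, and the capitals mark the repeat spaced by 5 bases.
Rarb: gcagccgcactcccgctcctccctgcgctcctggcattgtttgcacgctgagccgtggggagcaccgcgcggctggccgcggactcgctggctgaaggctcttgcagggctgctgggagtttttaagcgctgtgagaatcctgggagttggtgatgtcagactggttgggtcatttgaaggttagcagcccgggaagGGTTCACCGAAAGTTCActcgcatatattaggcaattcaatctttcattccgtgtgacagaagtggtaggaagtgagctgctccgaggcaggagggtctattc
Cyp26a1: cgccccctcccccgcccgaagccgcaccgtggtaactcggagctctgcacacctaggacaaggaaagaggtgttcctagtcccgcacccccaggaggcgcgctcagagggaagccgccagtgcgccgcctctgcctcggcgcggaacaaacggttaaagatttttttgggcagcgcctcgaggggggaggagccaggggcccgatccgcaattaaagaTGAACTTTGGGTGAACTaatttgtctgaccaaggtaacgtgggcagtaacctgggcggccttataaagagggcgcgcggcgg

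In Rarb the repeat reads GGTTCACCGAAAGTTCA along the gene, at positions -53 to -37 from the start. In Cyp26a1 it lies on the opposite strand, at -32 to -16, where it reads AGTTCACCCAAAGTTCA. A repeat spaced by 5 bases was found in 0.0974% of all 32851 promoter windows, spaced by 1 in 0.222% and by 2 in 0.268%, and a lone half-site, which each repeat also holds, in 43.7%. A match is a description of these letters and not a measured binding site. Of this pair, the levels of Rarb did not overlap between the E18 groups, and those of Cyp26a1 did.

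The 9 genes were chosen with earlier results of these data known, so their shares of calls are a description and not a test of the set. Counted over the 9 genes, the E12 comparison of DKO with WT called 1, Dhrs3, lower, which is 11.1% of the 9, against 0.353% of all tested genes (64 of 18153, with 0.0936% higher and 0.259% lower). At E12 2 of the 9, Dhrs3 and Crabp2, did not overlap between the groups, both lower in DKO, against 30.1% of all genes without overlap (15.7% higher and 14.4% lower). The E18 comparison called 4 of the 9 (44.4%), 3 higher and 1 lower, against 42.3% of all genes (20.5% higher and 21.8% lower), so the share of calls was near the background. In that comparison 5 of the 9 did not overlap, 3 higher and 2 lower, against 56.9% of all genes (27.8% higher and 29.1% lower). The median change over the 9 was -1.18 at E12 and -1.24 at E18, beside -0.08 and -0.04 over all tested genes. These medians are the values of Aldh1a3 at E12 and Cyp26a1 at E18, which had few reads and were not called. Aldh1a3 at E12 was at 0.0082 without E12 WT 2, and Cyp26a1 at E18 at 0.51 without labelled E18 WT 3. The medians of the 9 were not recomputed in those fits, and a general fall of the 9 genes was not tested.

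E18 DKO against E12 DKO called 5 of the 9 (55.6%), against 46% of all genes (23.2% higher and 22.8% lower). In it 6 of the 9 did not overlap, 4 higher and 2 lower, against 67.2% of all genes (33.1% higher and 34.1% lower). Dhrs3, Cyp26b1, Aldh1a1 and Crabp2 rose there and Rarb fell. Labelled E18 WT against E12 WT called 2 of the 9 (22.2%), against 0.953% of all genes (0.292% higher and 0.661% lower), with Rarb higher and Dhrs3 lower. The same 2 were the ones without overlap, against 17.9% of all genes (9.29% higher and 8.6% lower). The comparisons share libraries (E18 DKO, E12 DKO and each WT group enter more than 1 of them), so the same member called in several is not separate evidence.

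**Figure D3:**
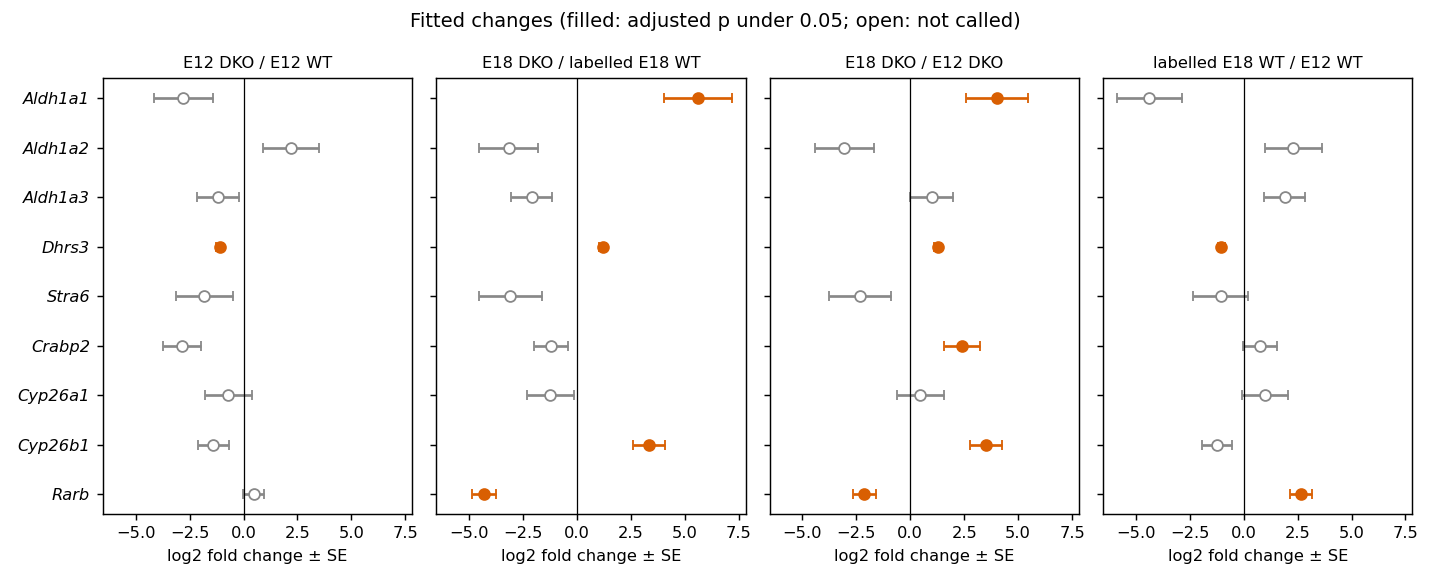
Fitted log2 fold change ± SE of each gene in the 4 comparisons named above the panels, with filled points for adjusted p under 0.05 and open points for the rest. Dhrs3 is called in all 4 panels, at -1.11, 1.20, 1.28 and -1.03, and Rarb and Cyp26b1 are called on the side opposite to each other in E18 DKO against labelled E18 WT and against E12 DKO.

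The genotype difference at E18 minus that at E12 was itself tested in the same model, and 5 of the 9 genes (55.6%) passed, 3 positive and 2 negative, against 41.9% of all genes (21.6% positive and 20.3% negative). With the stage of the libraries labelled E18 WT in doubt, genotype and stage cannot be told apart in it. The difference was 2.32 ± 0.23 for Dhrs3 (adjusted p = 0.000162) and 4.74 ± 1.02 for Cyp26b1 (adjusted p = 0.00427). It was -4.78 ± 0.74 for Rarb (adjusted p = 0.000775). These 3 calls, and that of Aldh1a1 at 8.40 ± 2.07 (adjusted p = 0.00839), held in all 12 fits that left out 1 library. The size for Aldh1a1 was 3.91 without E12 WT 1. For Aldh1a2 the difference was -5.36 ± 1.90 (adjusted p = 0.0412), and the call was lost in 6 of the 12 fits, those without E12 DKO 1, E12 WT 1 or 3, E18 DKO 2 or 3, or labelled E18 WT 1 (values -5.28 to -2.53, adjusted p = 0.0662 to 0.208). Stra6 was not called (-1.27 ± 1.90, adjusted p = 0.612) but was at -5.87 without E12 WT 2 (adjusted p = 0.00416), and Crabp2 (1.66 ± 1.15, adjusted p = 0.262) was at 3.60 without labelled E18 WT 1 (adjusted p = 0.00582).

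Around these 9 genes, 3 wider lists of the pathway were read in the same test. In E18 DKO against labelled E18 WT, the list for retinol transport, storage and interconversion with retinaldehyde had 6 genes higher and 6 lower among 21 tested of 25 (57.1% called). The list of retinoic acid carriers, receptors and cofactors had 5 higher and 1 lower among 13 tested of 15 (46.2%). The list of genes known to respond to retinoic acid in embryonic cells had 3 higher and 8 lower among 17 tested of 20 (64.7%). The background was 42.3%, and the median changes were 0.03, 0.34 and -0.72.

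Of the first list, Dhrs9, a retinol dehydrogenase, rose by 3.20 ± 0.40 in E18 DKO against labelled E18 WT (edgeR quasi-likelihood test, adjusted p = 0.000249). Rdh11, a retinal reductase, fell by 0.99 ± 0.15 (adjusted p = 0.000569), and Adh1, an alcohol dehydrogenase that also oxidises retinol, fell by 3.86 ± 0.69 (adjusted p = 0.00147). Of the second list, Ppard, a nuclear receptor gene, rose by 1.19 ± 0.22 (adjusted p = 0.0017) and the coactivator gene Ncoa3 by 0.70 ± 0.14 (adjusted p = 0.00238). Of the third, Tgm2, a transglutaminase gene, rose by 2.80 ± 0.30 (adjusted p = 0.000134) and Meis1, a homeobox gene, fell by 2.67 ± 0.32 (adjusted p = 0.000216). Tbx5, a T-box transcription factor gene, had 2, 0 and 0 counts in E18 DKO, against 359, 102 and 64 counts in the libraries labelled E18 WT, and was called lower (adjusted p = 0.001).

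At E12, edgeR called 0 genes of the 3 lists between DKO and WT. At an unadjusted p under 0.05 there were 5 of 21, 5 of 13 and 3 of 17, beside 4416 of all 18153 genes. Limma voom called 0 in each list. The DESeq2 Wald test called 3, 1 and 1, beside 2085 of all 18153 genes. Without E12 WT 1, edgeR called 2, 2 and 0, with the all-gene count of that fit not given here. Labelled E18 WT against E12 WT also gave 0 calls in each list. In it 3, 4 and 6 genes had an unadjusted p under 0.05, beside 3292 of all 18153 genes. DESeq2 called 0, 2 and 4 genes of the lists, and limma voom 0 in each list. Their all-gene counts are not given here, so these counts describe the settings.

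In E18 DKO against E12 DKO the lists had 6 higher and 5 lower, 6 higher and 1 lower, and 3 higher and 5 lower, or 52.4%, 53.8% and 47.1% of the genes tested, beside 46% of all genes. The 7 calls of the second list became 4 without E12 DKO 2, where the all-gene calls fell from 8349 to 6426. They ranged from 4 to 9 over the fits that left out 1 library. In this comparison Rarres2, which encodes the chemoattractant chemerin, rose by 4.59 ± 0.73 (adjusted p = 0.000668), and the retinol dehydrogenase gene Rdh14 rose by 1.10 ± 0.19 (adjusted p = 0.000992). The difference of the genotype effects called 12, 6 and 10 genes of the lists, with 41.9% of all genes called. Among those with the lowest adjusted p were Rarres1, a retinoid-induced gene, at 5.36 ± 0.89 (adjusted p = 0.00111), and Rara, which encodes the receptor RARα, at 1.48 ± 0.28 (adjusted p = 0.00216).

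Likeness of profile was measured as the root mean square difference of log2 CPM over the 12 libraries, after each gene was centred on its mean, among about 11179 genes that averaged at least 5 CPM. The nearest to Dhrs3 were Mvp, which encodes the major vault protein, at 0.16 and Spsb2 at 0.17, beside a spread of Dhrs3 itself (SD) of 0.59. The nearest to Rarb were Egflam at 0.53 and Unc5c, a netrin receptor gene, at 0.54, beside an SD of 1.58. The nearest to Cyp26b1 were Slc39a8, a metal ion transporter gene, at 0.32 and Mical2 at 0.41, beside 1.54, and the nearest to Aldh1a1 were Spock2 at 0.84 and Stk32a at 0.88, beside 2.60. For Cyp26a1 they were Arhgap4 (0.81) and Coro1a (0.83), beside an SD of 1.25. For Aldh1a3 they were Irs1 and Samd14 (0.91 each), beside 1.25, and for Crabp2 Gstt1 (1.08) and Tnxa (1.09), beside 1.47. The nearest to Stra6 were Caskin1 (1.14) and Hmgn5 (1.22), beside 1.92, and to Aldh1a2 Robo1 (1.22) and Vangl2 (1.26), beside 1.81. These distances describe 12 libraries whose groups also differ in the features below.

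Other features of the tissue moved with the E18 comparison. The summed level of 9 epithelial markers was 5299 to 6918 CPM in E18 DKO, against 2109 to 2714 CPM in labelled E18 WT. The sum of 9 mesenchymal markers was 3459 to 6247 CPM in E18 DKO, against 13664 to 29844 CPM in labelled E18 WT. Leukocyte markers, 4 genes, summed to 636 to 945 CPM in E18 DKO and 194 to 234 CPM in labelled E18 WT, and 7 markers of cornifying epidermis to 159 to 205 CPM in E18 DKO and 4.69 to 24.0 CPM in labelled E18 WT. Cartilage markers, 4 genes, summed to 3.68 to 5.12 CPM in E18 DKO, against 317 to 780 CPM in labelled E18 WT. The cartilage sums were 24.2 to 190 CPM in E12 WT and 192 to 344 CPM in E12 DKO. Markers of primitive red cells, 3 genes, summed to 17.3 to 19.0 CPM in E18 DKO, against 6049 to 7711 CPM in labelled E18 WT. Their part in the differences of Aldh1a1, Cyp26b1, Dhrs3 and Rarb was not tested, and with the labelled stage in doubt, genotype and stage cannot be told apart in that comparison.

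At E12 some sums separated the groups too. Epithelial markers stood at 1981 to 2367 CPM in DKO and 2898 to 4903 CPM in WT, and 4 markers of definitive red cells at 303 to 1184 CPM in DKO and 2896 to 6478 CPM in WT, both without overlap. Cartilage sums were higher in DKO, at 192 to 344 CPM against 24.2 to 190 CPM, again without overlap. Lower in DKO without overlap were 7 markers of decidua and uterus (56.5 to 63.8 against 67.9 to 89.5 CPM). So were the cornifying markers (4.44 to 6.76 against 8.77 to 72.0 CPM). Their part in the E12 differences of Dhrs3 and Crabp2 was not tested. Mesenchymal markers overlapped, at 12574 to 15614 CPM in DKO and 11561 to 23133 CPM in WT. E12 WT 1, the library high in Aldh1a1 and Cyp26b1, also had the highest leukocyte and cornifying sums of the 6 E12 libraries, at 523 and 72.0 CPM. Its yolk sac endoderm and epithelial sums were the highest of the 6 too, at 165152 and 4903 CPM. Its mesenchymal and cartilage sums were the lowest of the 6, at 11561 and 24.2 CPM. Their part in its Aldh1a1 and Cyp26b1 levels was not tested.

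**Figure D4:**
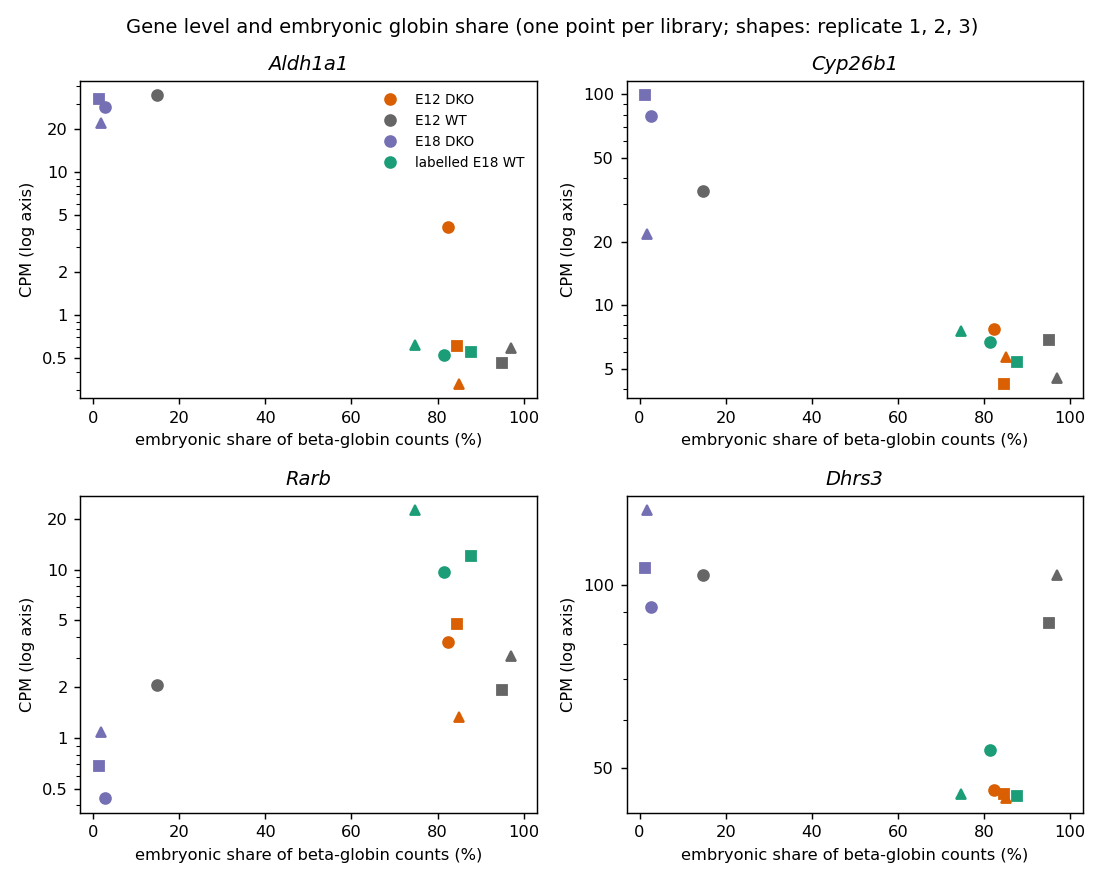
Level of Aldh1a1, Cyp26b1, Rarb and Dhrs3 in CPM on a log axis against the embryonic share of beta-globin counts in percent, with 1 point per library, colours for the groups and shapes for replicates 1, 2 and 3. E12 WT 1, at 14.8%, lies near the E18 DKO libraries in Aldh1a1 and Cyp26b1, whereas the libraries labelled E18 WT lie at 74.8% to 87.8% beside the E12 DKO libraries, and above them in Rarb.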

How the data were processed

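RNA of 12 fetal membrane samples was sequenced. The authors deposited unnormalised counts of reads per gene, per the file headers. Trimmomatic 0.36, STAR 2.4.2a, featureCounts of Subread 1.5.0 and the build GRCm38 are named in the submitters' processing notes. Per the file headers, genes were those of Ensembl release 86, counted with strand option 2. Symbols were found for 48349 of 48795 gene IDs. Counts of E12 DKO 1 came from the series table, and those of the other 11 libraries from their own files, which equalled columns of that table.

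Groups follow the labels. Genes were filtered with filterByExpr, leaving 18153, and all 12 libraries entered 1 quasi-likelihood model with TMM factors and 4 group means (edgeR 4.0.16, R 4.3.3; common biological coefficient of variation 0.373). P-values were adjusted by Benjamini-Hochberg over all tested genes and called under 0.05. SE is the absolute log2 change over the square root of F. CPM per kb uses the exon length in the files. The members, the wider lists and the tests were chosen with earlier results of these data known. All 9 members are named, with up to 3 called genes of lowest adjusted p from each list and comparison, and the 2 nearest profiles of each member. A few genes picked this way are not reported here. The procedure was tested on simulated counts. Alternatives were other scalings, DESeq2 1.42.0, limma 3.58.1 voom, other filters, a replicate block, a Y-linked covariate, fewer groups and each library left out. Exchanging the wild-type groups was chosen after seeing the data. Figures used matplotlib 3.10.9 in Python 3.11.15.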

Additional observations from a re-analysis of the deposited data

Results flagged for a closer look

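The genotype difference at E18 minus that at E12 passed its own test, in edgeR's quasi-likelihood model, for 5 of the 9 genes (55.6%). The same test called 41.9% of all genes, so the count alone is not a result about the 9. The stage of the libraries labelled E18 WT is in doubt, so genotype and stage cannot be told apart in this difference. It was 2.32 for Dhrs3, with every DKO library below every WT library at E12 and above every library labelled E18 WT at E18. With the wild-type groups exchanged, neither Dhrs3 change was called. They were -0.08 for E12 DKO against labelled E18 WT and 0.17 for E18 DKO against E12 WT, a pair that is not matched for stage. The difference was 4.74 for Cyp26b1 and 8.40 for Aldh1a1, with every E18 DKO library above every library labelled E18 WT and overlapping groups at E12. It was -4.78 for Rarb, with every E18 DKO library below every library labelled E18 WT. It was -5.36 for Aldh1a2, whose groups overlapped at both stages.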

How the results depend on the processing

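The calls of Dhrs3, Rarb and Cyp26b1 in E18 DKO against labelled E18 WT and in E18 DKO against E12 DKO kept their direction and side of the threshold in each setting run within the labelled groups. The number of the 9 genes called at E12 was 1, and 0 with library size alone, the replicate block, the Y-linked covariate, only the groups compared or the other WT group, and 2 with DESeq2. At E18 it was 4, and 6 with DESeq2 or only the groups compared (Aldh1a2 and Stra6 added), and 2 with E12 WT as the WT group. In E18 DKO against E12 DKO it was 5, and 6 with DESeq2 (Aldh1a2 added) or only the groups compared (Stra6 added), 4 with library size alone or limma voom, and 3 with the Y-linked covariate. In labelled E18 WT against E12 WT it was 2, and 3 with DESeq2 (Aldh1a1 added, adjusted p = 0.03), 1 with the replicate block, the Y-linked covariate or without both E12 WT 1 and labelled E18 WT 3, and 0 with only the groups compared. Leaving out 1 library gave 0 to 1 at E12, 3 to 5 at E18, 4 to 6 for the difference, 3 to 6 for the DKO stages and 0 to 2 for the WT stages. Over all genes the E12 count was 64, against 2085 with DESeq2, 55 with library size alone, 34 with the other WT group, 5 with the replicate block, 1 with the Y-linked covariate and 0 with only the groups compared. The all-gene E18 count was 7678, against 5044 with E12 WT as the WT group. Between DKO stages it was 8349, against 7316 with the Y-linked covariate. Between WT stages it was 173, against 118 with the Y-linked covariate, 77 with the replicate block and 56 with only the groups compared. Without both E12 WT 1 and labelled E18 WT 3 it was 1028. Leaving out E12 DKO 2 gave all-gene counts of 1 at E12 and 6426 between DKO stages. All-gene counts are not given here for every setting, among them DESeq2 and only the groups compared at E18. Member calls added in those settings therefore describe the settings and not the 9 genes.

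Dhrs3 at E12 was at -0.80 with library size alone (adjusted p = 0.0503), -1.11 with the replicate block (0.0637), -1.13 with the Y-linked covariate (0.0826) and -1.12 with only the groups compared (0.176). The labels do not say whether replicate numbers pair the libraries. Deviations of same-numbered libraries correlated at -0.176 to 0.288, and in no pair of groups were all 3 over 0.1. Differently numbered libraries were not compared, so these values cannot settle whether the numbers pair anything. The block also took the call from Rarb between WT stages (2.60, adjusted p = 0.0785) and from Aldh1a2 in the difference (-3.22, adjusted p = 0.152). Library size alone moved the median of all genes by 0.30 at E12, -0.36 at E18, -0.66 in the difference, -0.35 between DKO stages and 0.31 between WT stages.

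Values of changed sign, none of them called, were as follows, and the cause was not tested. With limma voom, Stra6 was at 0.25 at E12 and 0.90 between WT stages, and Crabp2 at -0.32 between WT stages. With the replicate block, Stra6 was at 0.22 between WT stages. With the other WT group at E12, Rarb was at -2.17, Aldh1a1 at 1.57 and Aldh1a2 at -0.11. Without both libraries that stood apart, Cyp26b1 was at 0.034 and Aldh1a1 at 1.69 at E12, Cyp26a1 at 0.50 at E18 and 1.77 in the difference, Aldh1a3 at 0.78 in the difference, and Cyp26a1 at -1.31, Cyp26b1 at 0.076 and Aldh1a1 at 0.068 between WT stages. Leaving out 1 library gave ranges across 0 at E12 for Aldh1a1 (-4.64 to 1.69), Aldh1a2 (-0.63 to 3.00), Aldh1a3 (-1.52 to 0.0082), Cyp26b1 (-1.82 to 0.038) and Stra6 (-2.71 to 2.80), and at E18 for Crabp2 (-1.72 to 0.75) and Cyp26a1 (-1.97 to 0.51). It did so in the difference for Cyp26a1 (-1.26 to 1.22) and Aldh1a3 (-2.08 to 0.43), between DKO stages for Cyp26a1 (-0.26 to 0.93), and between WT stages for Aldh1a1 (-4.93 to 0.12), Cyp26a1 (-0.75 to 1.46), Cyp26b1 (-1.67 to 0.19), Crabp2 (-1.21 to 1.27) and Stra6 (-1.65 to 3.54). By raw counts instead of counts per kilobase, the median Aldh1a1 share was 95.96% in E18 DKO and 5.79% in labelled E18 WT.

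With E12 WT in place of labelled E18 WT, the lists had 8, 3 and 7 calls in E18 DKO instead of 12, 6 and 11. Over all 18153 genes the calls also fell in this setting, from 7678 to 5044. Without both libraries they had 14, 7 and 8 at E18 and 2, 2 and 1 at E12. Leaving out 1 library gave 8 to 13, 5 to 8 and 8 to 11 calls at E18, 10 to 13, 4 to 9 and 6 to 8 between DKO stages, and 8 to 13, 4 to 8 and 8 to 10 in the difference. All-gene counts moved between settings too, at E12 from 64 to 2 without E12 DKO 1. The list counts across settings therefore describe the settings and not the lists. Counts of 1 to 118 in Cyp26a1 and Aldh1a3, and groups of 3 libraries that differ up to 126-fold within a group, limit what could be detected.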
